A study of Homo sapiens with 9 samples.

Results

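The 10 genes described here belong to the circadian clock or are driven by it: CLOCK, ARNTL, PER1, PER2, PER3, CRY1, CRY2, DBP, TEF and BHLHE40. They were chosen by name, with earlier results of these data known, and each gene is 1 of the 57773 features counted in every library. All 10 passed the filter on low counts and are among the 12901 genes tested. The study exposed HepG2, a human hepatocellular carcinoma line grown as a monolayer, to tris(2-butoxyethyl) phosphate (TBOEP), an organophosphate flame retardant, and measured polyadenylated RNA by sequencing. There were 3 cultures with 0.1% DMSO alone, 3 with 2.5 µM TBOEP in 0.1% DMSO and 3 with 125 µM TBOEP in 0.1% DMSO, all exposed for 72 h and seeded, treated, extracted and sequenced separately. HepG2 comes from 1 tumour and is grown without the other cell types of the liver, and the cultures ran for 72 h before exposure began.

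In the mammalian clock, CLOCK and ARNTL (also called BMAL1) pair up, bind E-box sequences in gene promoters and switch on PER and CRY genes, whose proteins then return to the nucleus and block that pair. A second loop joins the first through the nuclear receptors REV-ERB (NR1D1, NR1D2), which repress ARNTL, and ROR (such as RORA), which activate it. The PAR bZIP proteins DBP, TEF and HLF carry the rhythm to D-box sequences in output genes, many of which serve metabolism and detoxification in the liver. Each culture was sampled once, so the values below are levels after 72 h and not rhythms, and the time of day at collection is not given in the sources used here. In bulk RNA, fewer cells that express a gene and less of its RNA per cell cannot be told apart.

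The promoters of 4 genes are shown because they carry the binding sequences this loop is built on, and because 3 of these genes (PER1, ARNTL and CRY1) passed the test at 125 µM while PER2 did not. Each window holds 250 bases before and 50 bases from the RefSeq start of the gene, on build GRCh38.p14, written 5′ to 3′ on the gene's strand. PER1 is at chr17:8152355-8152654 (minus strand), PER2 at chr2:238288561-238288860 (minus strand), CRY1 at chr12:107093500-107093799 (minus strand) and ARNTL, listed by RefSeq as BMAL1, at chr11:13277540-13277839 (plus strand). Capitals mark the motif matches.
PER1: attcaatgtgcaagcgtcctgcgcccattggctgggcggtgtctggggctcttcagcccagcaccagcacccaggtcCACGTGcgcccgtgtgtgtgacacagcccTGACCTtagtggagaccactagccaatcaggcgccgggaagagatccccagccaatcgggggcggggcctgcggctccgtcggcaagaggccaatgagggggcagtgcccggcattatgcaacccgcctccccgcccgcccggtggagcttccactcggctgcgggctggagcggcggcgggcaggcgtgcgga
PER2: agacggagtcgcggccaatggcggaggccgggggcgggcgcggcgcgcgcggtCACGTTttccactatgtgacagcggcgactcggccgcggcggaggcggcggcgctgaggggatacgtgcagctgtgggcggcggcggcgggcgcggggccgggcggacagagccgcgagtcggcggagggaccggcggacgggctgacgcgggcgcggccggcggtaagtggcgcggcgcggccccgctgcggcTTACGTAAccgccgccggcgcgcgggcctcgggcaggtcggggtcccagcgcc
CRY1: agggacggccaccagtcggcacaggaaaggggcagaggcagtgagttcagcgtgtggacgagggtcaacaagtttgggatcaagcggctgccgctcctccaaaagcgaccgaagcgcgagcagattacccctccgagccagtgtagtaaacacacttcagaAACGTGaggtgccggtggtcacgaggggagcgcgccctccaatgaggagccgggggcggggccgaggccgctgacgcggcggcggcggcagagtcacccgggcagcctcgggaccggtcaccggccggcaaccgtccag
ARNTL: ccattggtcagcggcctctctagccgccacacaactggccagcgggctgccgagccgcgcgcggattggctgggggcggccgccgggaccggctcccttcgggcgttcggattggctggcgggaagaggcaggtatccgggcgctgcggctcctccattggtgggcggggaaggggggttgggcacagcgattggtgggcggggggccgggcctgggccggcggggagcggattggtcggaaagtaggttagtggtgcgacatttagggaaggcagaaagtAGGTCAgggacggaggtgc
The motifs were searched on both strands in the windows of all 10 genes and do not overlap each other where they were found. The PER1 window holds the E-box CACGTG, starting 173 bases before the gene's start, and the ROR and REV-ERB half-site AGGTCA on the other strand, starting 144 bases before it. The PER2 window holds the E-box variant CACGTT and a D-box, searched as TTANGTAA. The CRY1 window holds the variant CACGTT on the other strand, and the ARNTL window holds AGGTCA. Over the 10 windows, the E-box was in 3 (PER1, TEF and BHLHE40), against 7.26% of the 35116 human windows of the same length. The variant CACGTT was in 2 (PER2 and CRY1), against 5.34% of all windows, and the D-box in 2 (PER2 and PER3), against 2.18% of all windows. The half-site AGGTCA was in 3 (ARNTL, PER1 and CRY2), against 13.8% of all windows. The CLOCK and DBP windows held none of these letters, and both genes passed the test at 125 µM against DMSO. TEF and BHLHE40, whose windows hold the E-box, did not pass it. RefSeq lists a second start for CLOCK, ARNTL, PER3, CRY2 and TEF that was not searched. A match is a stretch of letters and was not tested for binding here.

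The libraries held 2480964 to 11885877 reads assigned to genes, and levels are given below in CPM, read counts scaled to library size with TMM factors. Of 9 liver markers, all 9 had reads in every group, and their summed level was 58656 to 79539 CPM in DMSO, 49073 to 58368 CPM at 2.5 µM and 35497 to 42151 CPM at 125 µM. At 125 µM against DMSO 5 fell (ALB, AFP, APOB, SERPINA1 and FGB) and 1 rose (GPC3), where 40.2% of all genes tested changed. At 2.5 µM against DMSO 2 fell and 1 rose, where 11% of all genes changed. Of 16 markers of other cell types, 5 (PTPRC, CD3E, KDR, COL1A2 and DCN) had 0 reads in all 9 libraries. Their summed level was 2548 to 3210 CPM in DMSO, 2698 to 3045 CPM at 2.5 µM and 2121 to 2290 CPM at 125 µM, most of it from LYZ. Of these markers, only VWF, CD14, LYZ, PDGFRB, ACTA2 and KRT19 had enough reads to be tested. At 125 µM against DMSO, where 19.9% of all genes fell and 20.3% rose, 3 of them fell. They were LYZ (log2 fold change -0.51, adjusted p 0.0013, edgeR), PDGFRB (-0.92, adjusted p 0.0012, edgeR) and VWF (-2.04, adjusted p 0.024, edgeR). VWF rested on 2 to 31 reads a library, and its DMSO and 125 µM libraries overlapped. CDH5, another endothelial marker, went the other way, with 4 reads in DMSO, 19 at 2.5 µM and 31 at 125 µM. KRT19, a bile duct keratin, rose by 1.56 at 125 µM against DMSO (adjusted p 1.77e-05, edgeR) and by 0.81 at 2.5 µM against DMSO (adjusted p 0.013, edgeR). The share of intron reads among reads of nuclear genes was 7.24%, 7.22% and 6.14% in DMSO, 7.74%, 5.33% and 4.93% at 2.5 µM and 5.50%, 5.28% and 4.91% at 125 µM. The part of these shifts in the clock genes' values was not tested.

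At 125 µM against DMSO, 5 of the 10 clock genes fell and 0 rose at an adjusted p under 0.05 by edgeR's quasi-likelihood test: DBP, ARNTL, PER1, CLOCK and CRY1. Of all genes tested in this comparison 40.2% changed, 19.9% falling and 20.3% rising. The 3 libraries at 125 µM lay below all 3 DMSO libraries for 6 of the 10 genes, against 25.2% of all genes, and above them for 1 (CRY2), where 50.9% of all genes did not overlap in either direction. The median log2 fold change of the 10 was -0.44, beside 0.0036 over all genes tested, and 9 of the 10 were negative. Among those 9, TEF (-0.08) and BHLHE40 (-0.02) were close to no change, and the sign of each turned in some alternatives. At 2.5 µM against DMSO, 0 of the 10 passed (edgeR and DESeq2), where 11% of all genes did, 5.03% falling and 6.02% rising. Of the 10, 4 had an unadjusted p under 0.05 (CLOCK, ARNTL, CRY2 and BHLHE40), against 27.4% of all genes, and 2 (CLOCK and ARNTL) did not overlap between the groups, against 28.2% of all genes. The median log2 fold change was -0.10, beside -0.0053 over all genes. At 125 µM against 2.5 µM, 2 of the 10 fell (PER1 and DBP) and 0 rose, where 14.9% of all genes changed, 7.44% falling and 7.48% rising. The groups did not overlap for 7 of the 10, against 32.8% of all genes, and the median was -0.32, beside -0.0023 over all genes. Any pair of these comparisons shares the cultures of 1 group.

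**Figure D1:**
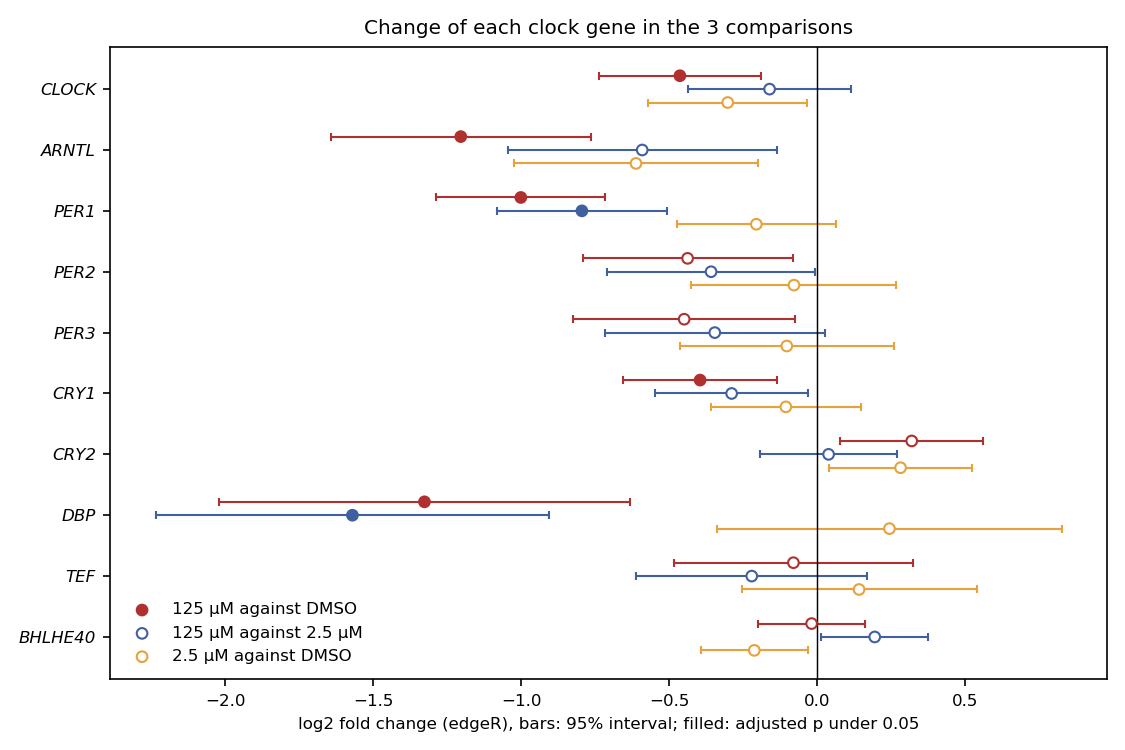
log2 fold change of the 10 clock genes (x axis) by edgeR in 3 comparisons, with bars for the 95% interval; filled points have an adjusted p under 0.05. DBP (-1.33) and ARNTL (-1.20) lie farthest to the left at 125 µM against DMSO, and no point is filled at 2.5 µM against DMSO.

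Among the activators, ARNTL, the partner of CLOCK, without which mice lose their daily rhythm, had the larger difference. It lies on chromosome 11 at 13298199 to 13408813 (hg19). It was at 14.9, 9.10 and 11.0 CPM in the 3 DMSO cultures, 7.17, 8.09 and 8.89 CPM at 2.5 µM and 6.19, 4.15 and 5.87 CPM at 125 µM. All 6 TBOEP libraries lay below all 3 DMSO libraries, and the 125 µM libraries lay below those at 2.5 µM. The log2 fold change at 125 µM against DMSO was -1.20 ± 0.22 (SE, n = 3 each), a 2.30-fold lower level, with an adjusted p of 0.00073 by edgeR. At 2.5 µM against DMSO it was -0.61 ± 0.21 (adjusted p 0.072, edgeR), and at 125 µM against 2.5 µM -0.59 ± 0.23 (adjusted p 0.10, edgeR), so neither single step passed. ARNTL passed at 2.5 µM against DMSO in 2 of 16 alternatives, with log2 fold changes over the 16 between -0.77 and -0.30. These were without control culture 2, at -0.77 (adjusted p 0.022, edgeR), and without the filter on low counts, at -0.61 (adjusted p 0.028, edgeR).

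CLOCK, the other DNA-binding member of the pair, lies on chromosome 4 at 56294070 to 56413305 (hg19). It was at 17.0, 15.6 and 17.4 CPM in DMSO, 12.9, 14.8 and 12.1 CPM at 2.5 µM and 13.1, 11.7 and 11.0 CPM at 125 µM. The TBOEP libraries of both doses lay below those in DMSO, while the libraries of the 2 doses overlapped. CLOCK fell by 0.46 ± 0.14 on the log2 scale at 125 µM against DMSO (adjusted p 0.016, edgeR). At 2.5 µM against DMSO the log2 fold change was -0.30 ± 0.14 (adjusted p 0.17, edgeR). Of all CLOCK reads 15.6% fell in introns: 19.4% in DMSO, 17.3% at 2.5 µM and 9.32% at 125 µM. The gene overlaps TMEM165 over 25495 bases, so its reads are uncertain to the extent that they were shared. On exon reads alone the log2 fold change at 125 µM against DMSO was -0.36 (adjusted p 0.079, edgeR), which no longer passed. It did not pass with DESeq2 (adjusted p 0.056) or with limma on log2(RPKM + 0.5) (adjusted p 0.18), nor by edgeR without 125 µM culture 2 (adjusted p 0.079) or without control culture 1 (adjusted p 0.054).

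**Figure D2:**
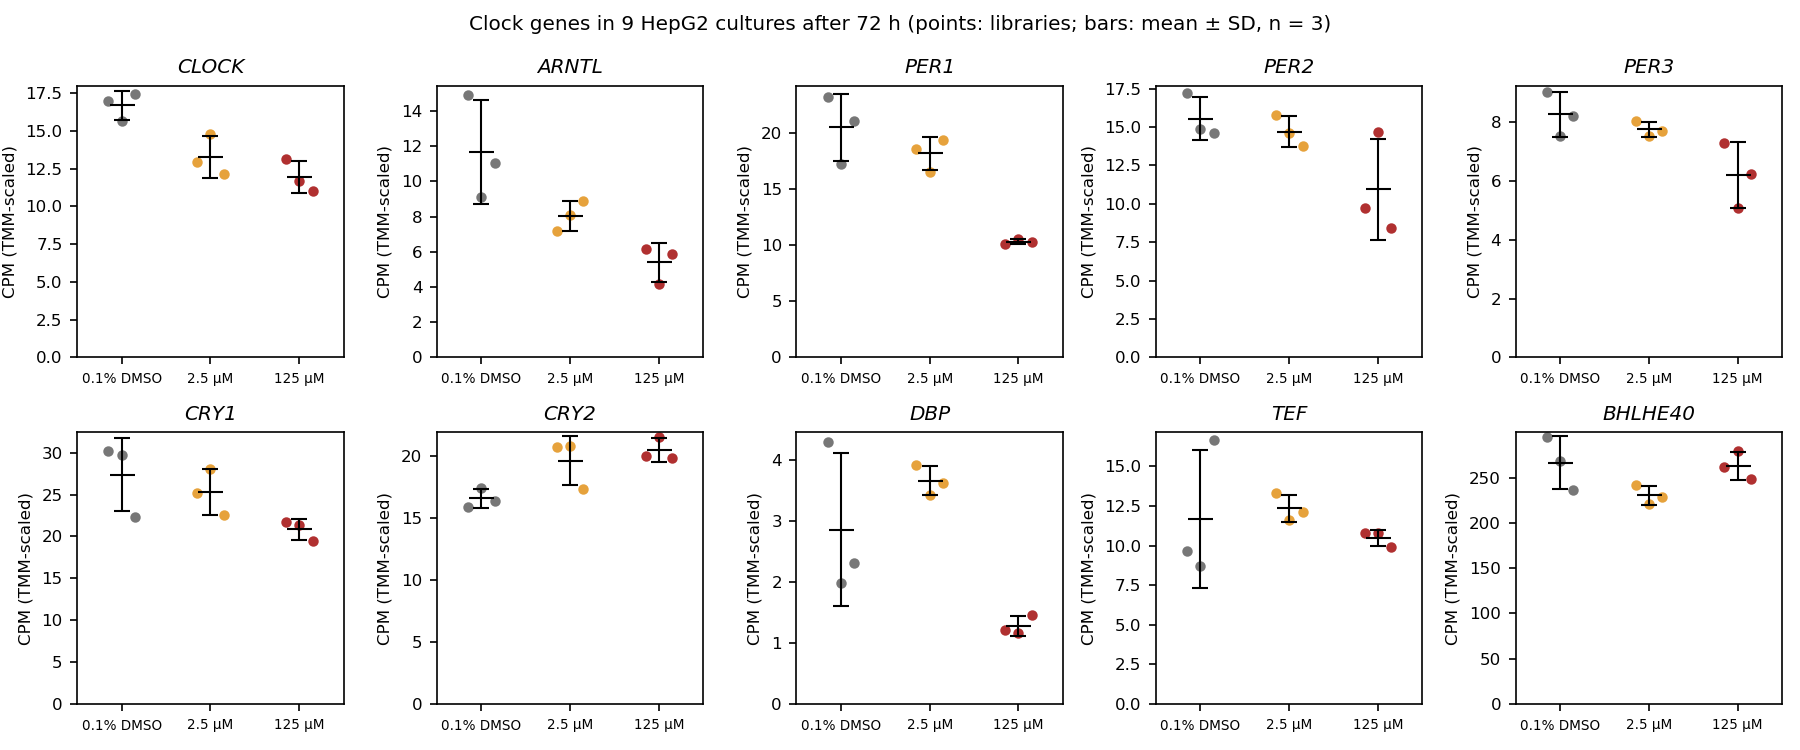
Level of each of the 10 clock genes in every library (y axis, TMM-scaled CPM, starting at 0) for DMSO, 2.5 µM and 125 µM TBOEP; points are libraries and bars the mean ± SD of 3. The 3 libraries at 125 µM lie between 10.1 and 10.5 CPM for PER1, below all other libraries, while those of BHLHE40 lie among the DMSO libraries.

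The PER genes encode the repressors that give the family its name, period, and their RNA oscillates across the day in many tissues. PER1, on chromosome 17 at 8043790 to 8059824 (hg19), was at 23.2, 17.2 and 21.0 CPM in DMSO, 18.6, 16.5 and 19.4 CPM at 2.5 µM and 10.1, 10.5 and 10.3 CPM at 125 µM. The DMSO and 2.5 µM libraries overlapped, and the 125 µM libraries lay far below both. PER1 fell by 1.00 ± 0.15 on the log2 scale at 125 µM against DMSO, a 2.00-fold lower level (adjusted p 0.00012, edgeR). It fell by 0.80 ± 0.15 at 125 µM against 2.5 µM (adjusted p 0.0025, edgeR). At 2.5 µM against DMSO the log2 fold change was -0.21 ± 0.14, with a 95% interval of -0.48 to 0.06 (adjusted p 0.36, edgeR). Nearly all PER1 reads lay in exons, with 3.24% in introns.

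PER2, whose loss disrupts behavioural rhythm in mice, lies on chromosome 2 at 239152679 to 239198743 (hg19). It was at 17.2, 14.8 and 14.6 CPM in DMSO, 15.8, 14.6 and 13.7 CPM at 2.5 µM and 9.71, 14.7 and 8.44 CPM at 125 µM. At 125 µM, culture 2 sat with the DMSO libraries and the other two sat below them. The log2 fold change at 125 µM against DMSO was -0.44 ± 0.18 (adjusted p 0.066, edgeR) and did not pass. Without that culture it was -0.75 (adjusted p 0.0075, edgeR), and at 125 µM against 2.5 µM -0.68 (adjusted p 0.037, edgeR), against -0.36 (adjusted p 0.20, edgeR) with it.

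PER3, on chromosome 1 at 7844380 to 7905237 (hg19), is dispensable for the core rhythm in mice. It was at 9.02, 7.52 and 8.21 CPM in DMSO, 8.03, 7.53 and 7.68 CPM at 2.5 µM and 7.28, 5.06 and 6.24 CPM at 125 µM. The 125 µM libraries lay below the others, by little. The log2 fold change at 125 µM against DMSO was -0.45 ± 0.19 (adjusted p 0.073, edgeR). It passed in 2 of 16 alternatives, over which the log2 fold change lay between -0.61 and -0.24. These were exon reads alone, at -0.55 (adjusted p 0.039, edgeR), and without 125 µM culture 1, at -0.61 (adjusted p 0.041, edgeR).

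The cryptochromes CRY1 and CRY2 encode the other repressors of the CLOCK and ARNTL pair, and their values differed in opposite directions at 125 µM against DMSO. CRY1, the stronger repressor of the pair, lies on chromosome 12 at 107385142 to 107487607 (hg19) and was at 30.2, 29.7 and 22.3 CPM in DMSO, 25.2, 28.1 and 22.6 CPM at 2.5 µM and 21.7, 21.4 and 19.5 CPM at 125 µM. DMSO culture 3 was low and stood just above the highest library at 125 µM. CRY1 fell by 0.40 ± 0.13 on the log2 scale at 125 µM against DMSO (adjusted p 0.027, edgeR), and this call was lost in 7 of 16 alternatives, in 5 of them by leaving out 1 culture: each of the 3 at 125 µM, control 1 or control 2 (adjusted p 0.062 to 0.13, edgeR). CRY2, on chromosome 11 at 45868669 to 45904798 (hg19), was at 15.9, 17.4 and 16.4 CPM in DMSO, 20.8, 20.8 and 17.4 CPM at 2.5 µM and 20.0, 21.6 and 19.8 CPM at 125 µM. The 125 µM libraries lay above those in DMSO. The log2 fold change of CRY2 at 125 µM against DMSO was 0.32 ± 0.12 (adjusted p 0.051, edgeR), which missed the threshold, and it passed in 4 of 16 alternatives. Between 125 µM and 2.5 µM it was 0.04 ± 0.12, with a 95% interval of -0.19 to 0.27.

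BHLHE40 (DEC1) is a repressor that competes for the same E-boxes, and it responds to many other signals such as low oxygen. It lies on chromosome 3 at 5020801 to 5027008 (hg19), overlaps its antisense gene BHLHE40-AS1, and was the most read of the 10, with 567 to 3364 reads a library. It was at 295, 268 and 237 CPM in DMSO, 241, 221 and 229 CPM at 2.5 µM and 261, 279 and 249 CPM at 125 µM. The DMSO and 125 µM libraries overlapped throughout. The log2 fold change at 125 µM against DMSO was -0.02 ± 0.09, with a 95% interval of -0.20 to 0.16 (adjusted p 0.89, edgeR), and its sign turned in 4 of 16 alternatives. At 2.5 µM against DMSO it was -0.21 ± 0.09 (adjusted p 0.15, edgeR).

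DBP and TEF are outputs of the loop and encode PAR bZIP activators of D-box genes. DBP, a direct CLOCK and ARNTL target in mice, lies on chromosome 19 at 49133287 to 49140695 (hg19) and rested on few reads: 41, 10 and 9 in DMSO, 41, 37 and 9 at 2.5 µM and 10, 14 and 4 at 125 µM. In CPM these were 4.30, 1.98 and 2.31 in DMSO, 3.92, 3.44 and 3.64 at 2.5 µM and 1.21, 1.16 and 1.47 at 125 µM. The 125 µM libraries lay below all others, and DMSO culture 1 stood well above the other two. DBP fell by 1.33 ± 0.35 on the log2 scale at 125 µM against DMSO, a 2.51-fold lower level (adjusted p 0.0082, edgeR), and by 1.57 ± 0.34 against 2.5 µM (adjusted p 0.0068, edgeR). Without control culture 1 the log2 fold change against DMSO was -0.79 (adjusted p 0.16, edgeR), and without 125 µM culture 2 it was -1.25 (adjusted p 0.052, edgeR), so neither passed. Against 2.5 µM the call was lost without 125 µM culture 2 (-1.50, adjusted p 0.056, edgeR). At 2.5 µM against DMSO the log2 fold change of DBP was positive, at 0.24 ± 0.30 (adjusted p 0.67, edgeR). DBP shares 688 bases with SPHK2, which had 475 reads, so some of its reads are uncertain.

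TEF, on chromosome 22 at 41763337 to 41795330 (hg19), was at 9.65, 8.71 and 16.7 CPM in DMSO, 13.3, 11.6 and 12.1 CPM at 2.5 µM and 10.8, 10.8 and 9.91 CPM at 125 µM. DMSO culture 3 stood above all other libraries and the other two DMSO cultures below all of them. The log2 fold change at 125 µM against DMSO was -0.08 ± 0.21, with a 95% interval of -0.49 to 0.32 (adjusted p 0.79, edgeR). Without that culture it was 0.20 (adjusted p 0.38, edgeR).

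Levels can be compared between genes per exon length, as RPKM, which scales exon reads by exon length and library depth. BHLHE40 was far above the rest, with 65.0 ± 6.78 RPKM in DMSO (SD, n = 3), followed by CRY1 with 4.80 ± 0.82 RPKM. In DMSO the order then ran PER1 (2.71 RPKM), CRY2 (2.40), TEF (2.31), PER2 (1.91), ARNTL (1.42), CLOCK (1.12) and PER3 (1.06), with each gene's range overlapping that of its neighbour. DBP was last in DMSO with 0.42 ± 0.17 RPKM, below the range of PER3. These places rest on the deposited exon lengths, such as 6544 bases for DBP, which were not checked against the transcripts expressed here. At 125 µM, CRY1 (3.92 RPKM), CRY2 (3.18) and TEF (2.13) came next after BHLHE40 (67.3), each with a range apart from its neighbour. PER1, at 1.46 RPKM, stood below CRY2 and TEF and level with PER2 (1.45 RPKM) at 125 µM, against 2.71 RPKM and a place above CRY2 and TEF in DMSO. ARNTL, with 0.70 RPKM at 125 µM, stood below CLOCK (0.94 RPKM) and PER3 (0.83 RPKM), although its range overlapped that of PER3. DBP was last again, at 0.20 RPKM.

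**Figure D3:**
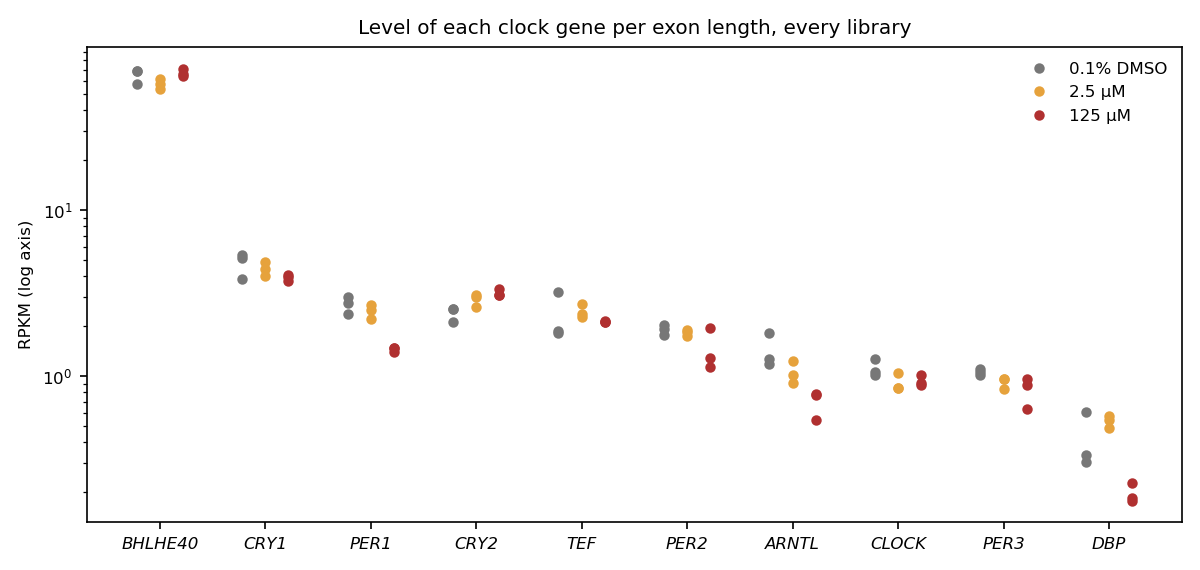
RPKM of the 10 clock genes (y axis, log scale) in every library, ordered by their mean in DMSO; each point is 1 library of DMSO, 2.5 µM or 125 µM TBOEP. BHLHE40 lies near 65.0 in DMSO, the other 9 between 0.18 and 5.40 over all libraries, and the 125 µM points of PER1, ARNTL and DBP lie below the others.

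The ratio of 2 genes' reads within a library does not depend on how the library was scaled, so 10 pairs of related genes were compared over the 3 groups by an exact permutation test over all 1680 assignments of the libraries, whose smallest possible p is 0.0036. The pairs were chosen after the genes' values had been seen. The log2 ratio of CRY1 to CRY2 was 0.92, 0.77 and 0.44 in DMSO, 0.28, 0.43 and 0.38 at 2.5 µM and 0.12, -0.01 and -0.03 at 125 µM. The 3 groups did not overlap, and the means were 0.71, 0.36 and 0.03 (exact permutation p 0.0036, adjusted over the 10 pairs 0.018). CRY1 therefore had more reads than CRY2 in every DMSO library and about as many at 125 µM. ARNTL2 is the paralog of ARNTL and can also pair with CLOCK. The log2 ratio of ARNTL to ARNTL2 averaged 0.86 ± 0.49 in DMSO, -0.26 ± 0.05 at 2.5 µM and -0.80 ± 0.49 at 125 µM (SD, n = 3 each; exact permutation p 0.0036, adjusted 0.018). Every DMSO library had more ARNTL reads than ARNTL2 reads, and every TBOEP library had fewer.

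The log2 ratio of PER1 to PER3 averaged 1.29 in DMSO, 1.22 at 2.5 µM and 0.74 at 125 µM (exact permutation p 0.011, adjusted 0.036). That result passed in 1 of its 10 alternatives, with adjusted p-values up to 0.18 (exact permutation). The CRY1 to CRY2 ratio passed in 5 of its 10 and the ARNTL to ARNTL2 ratio in 6 of 10. The highest adjusted p was 0.060 for CRY1 to CRY2 and 0.054 for ARNTL to ARNTL2 (exact permutation), and their differences at 125 µM against DMSO kept their sign in all 10 alternatives. The other 7 pairs did not pass: adjusted p-values were 0.12 for DBP to HLF, 0.13 for both ARNTL to CLOCK and DBP to TEF, 0.21 for PER1 to PER2, 0.81 for both CLOCK to NPAS2 and TEF to HLF, and 1 for PER2 to PER3 (exact permutation). Of these, DBP to TEF and DBP to HLF passed without control culture 1 (adjusted p 0.027 each, exact permutation), where the DBP to TEF difference at 125 µM against DMSO was -0.52, against -0.95 with all cultures. TEF to HLF passed without control culture 3 (adjusted p 0.024, exact permutation).

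**Figure D4:**
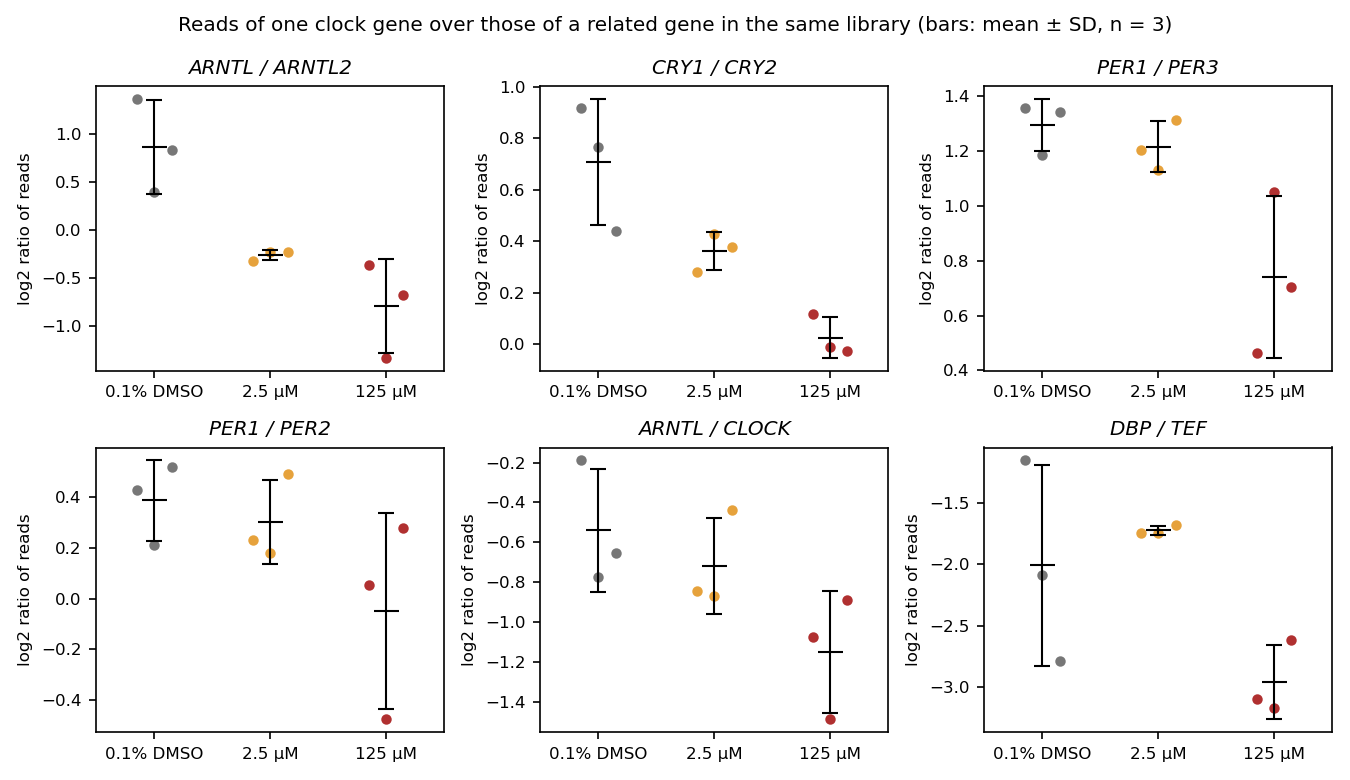
log2 ratio of the reads of 2 related genes within each library (y axis) for 6 of the 10 pairs, by dose; points are libraries and bars the mean ± SD of 3. The CRY1 to CRY2 and ARNTL to ARNTL2 ratios step down with dose without overlap between groups.

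Of 9 other genes of the loop, 6 were tested, and at 125 µM against DMSO 1 rose, 2 fell and 3 did not pass (median log2 fold change -0.26), where 40.2% of all genes changed. RORA, a ROR receptor, was at 41.0, 25.5 and 34.1 CPM in DMSO, 31.7, 38.1 and 33.9 CPM at 2.5 µM and 19.4, 21.7 and 16.9 CPM at 125 µM. The DMSO and 2.5 µM libraries overlapped, and the 125 µM libraries lay below both. RORA fell by 0.78 ± 0.16 on the log2 scale at 125 µM against DMSO (adjusted p 0.0014, edgeR) and by 0.81 ± 0.16 against 2.5 µM (adjusted p 0.0036, edgeR).

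NR1D2 (REV-ERB beta) was at 54.0, 44.9 and 41.8 CPM in DMSO, 37.8, 47.2 and 41.6 CPM at 2.5 µM and 27.4, 26.5 and 32.3 CPM at 125 µM. It fell by 0.75 ± 0.13 on the log2 scale at 125 µM against DMSO (adjusted p 0.00035, edgeR) and by 0.59 ± 0.13 against 2.5 µM (adjusted p 0.0067, edgeR; 0.052 without 125 µM culture 2), and it shares 1332 bases with NKIRAS1. NR1D1 (REV-ERB alpha), which overlaps THRA, had a log2 fold change of -0.14 ± 0.16 (adjusted p 0.53, edgeR) at 125 µM against DMSO. ARNTL2 was at 5.77, 6.93 and 6.16 CPM in DMSO, 8.99, 9.48 and 10.5 CPM at 2.5 µM and 8.01, 10.5 and 9.54 CPM at 125 µM. It rose by 0.60 ± 0.18 at 125 µM against DMSO (adjusted p 0.017, edgeR) and by 0.61 ± 0.18 at 2.5 µM against DMSO (adjusted p 0.045, edgeR). All 6 TBOEP libraries lay above the DMSO libraries, the opposite of ARNTL. ARNTL2 overlaps the feature RP11-165P7.1 over 33520 bases, and its 2.5 µM call was kept in 4 of 16 alternatives. The 125 µM call was lost with DESeq2 (adjusted p 0.071), without 125 µM culture 2 (adjusted p 0.12, edgeR) and without control culture 1 (adjusted p 0.090, edgeR). RORB had 0 reads in all libraries, and BHLHE41 and C1orf51 (CIART) had too few reads to be tested.

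Of 2 D-box factors other than DBP and TEF, both tested, 1 fell at 125 µM against DMSO, where 19.9% of all genes fell. HLF, another PAR bZIP activator, fell by 0.27 ± 0.08 on the log2 scale (adjusted p 0.017, edgeR), at 364, 391 and 372 CPM at 125 µM, against 418, 471 and 474 CPM in DMSO. HLF passed in 11 of 16 alternatives and was lost without 125 µM culture 1 or 3 or control culture 2 or 3 (adjusted p 0.050 to 0.076, edgeR). At 125 µM against 2.5 µM, HLF fell by 0.32 ± 0.08 (adjusted p 0.017, edgeR), where 7.44% of all genes fell, and passed in 13 of 16 alternatives. NFIL3, which represses through the same D-boxes, had a log2 fold change of 0.08 ± 0.08 (adjusted p 0.47, edgeR). Of 11 kinases, ubiquitin ligase subunits and other modifiers of clock proteins, 10 were tested, and 3 fell and 0 rose at 125 µM against DMSO (median log2 fold change -0.18), where 19.9% of all genes fell and 40.2% changed. They were GSK3B, a kinase of several clock proteins (-0.43 ± 0.10, adjusted p 0.0029, edgeR), CSNK1D, a kinase that marks PER proteins for degradation (-0.32 ± 0.10, adjusted p 0.021, edgeR), and USP2, a deubiquitinase (-0.66 ± 0.24, adjusted p 0.040, edgeR). USP2 passed in 8 of 16 alternatives and was lost without 125 µM culture 2 or 3 or control culture 1 or 3 (adjusted p 0.054 to 0.27, edgeR). CSNK1D passed in 12 of 16 and was lost without 125 µM culture 1 or 2 or control culture 1 (adjusted p 0.052 to 0.13, edgeR). CSNK1D overlaps SLC16A3, a gene with 28595 reads, over 22107 bases. GSK3B also fell at 2.5 µM against DMSO (-0.35 ± 0.10, adjusted p 0.032, edgeR), a call lost without 2.5 µM culture 1 or 3, 125 µM culture 3 or control culture 1 (adjusted p 0.050 to 0.18, edgeR).

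Of 8 genes known as rhythmic outputs, 7 were tested, and at 125 µM against DMSO 1 rose and 1 fell (median log2 fold change 0.05), where 40.2% of all genes changed. POR, the reductase that passes electrons to liver cytochrome P450 enzymes, rose by 0.53 ± 0.09 on the log2 scale (adjusted p 0.00037, edgeR), at 369, 384 and 330 CPM at 125 µM, against 233, 265 and 255 CPM in DMSO. It rose by 0.44 ± 0.09 against 2.5 µM (adjusted p 0.0050, edgeR). CYP7A1, the first enzyme of the main bile acid pathway, fell by 2.31 ± 0.63 (adjusted p 0.0090, edgeR), but on 2, 3 and 1 reads at 125 µM, against 11, 9 and 5 reads in DMSO, and not without 125 µM culture 2 (adjusted p 0.057, edgeR). Against 2.5 µM, with 30 reads there in all, CYP7A1 fell by 2.22 ± 0.61 (adjusted p 0.026, edgeR) and passed in 10 of 16 alternatives. NAMPT, an enzyme of NAD synthesis, rose by 0.34 ± 0.09 at 2.5 µM against DMSO (adjusted p 0.032, edgeR), a call lost without 2.5 µM culture 2 or 3 or control culture 1 or 3 (adjusted p 0.087 to 0.12, edgeR). Its log2 fold change was 0.18 ± 0.09 at 125 µM against DMSO (adjusted p 0.15, edgeR).

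**Figure D5:**
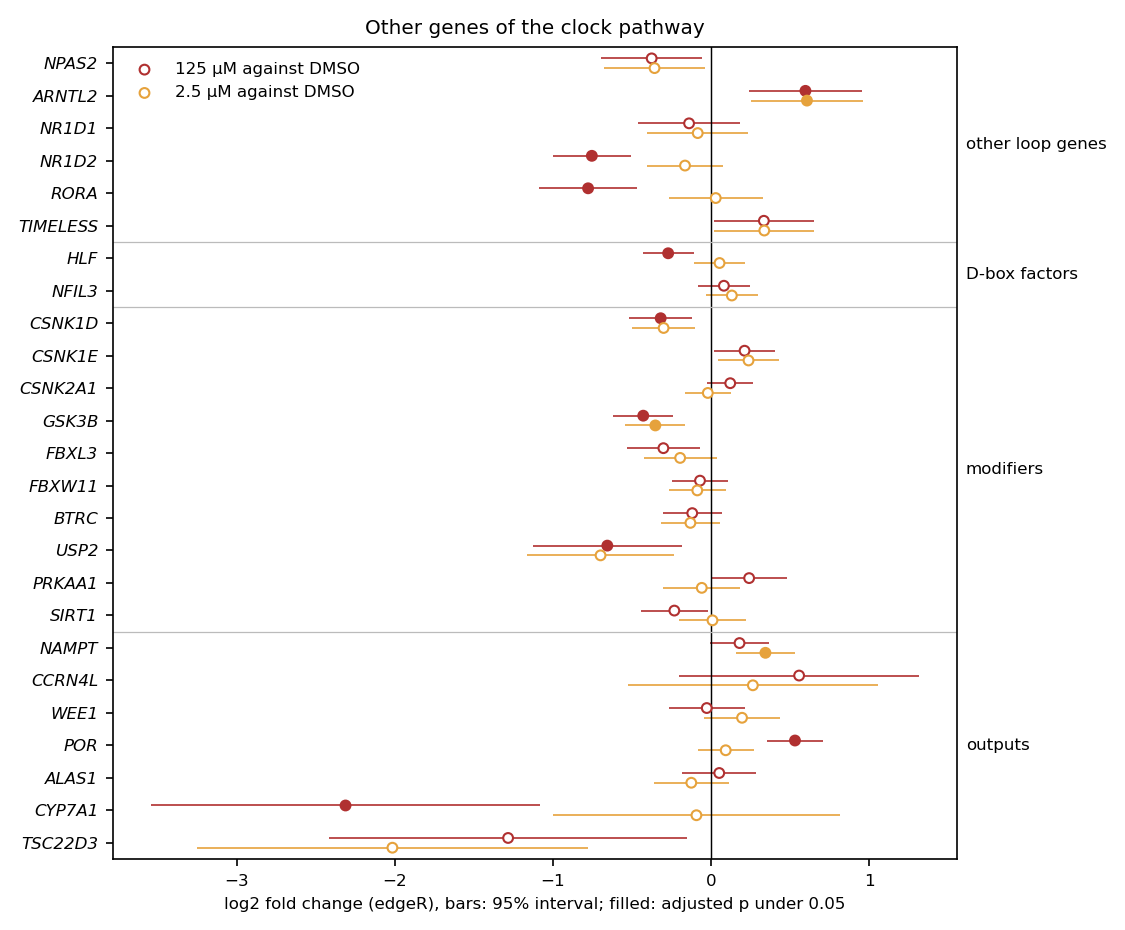
log2 fold change (x axis, edgeR) of the tested genes of the 4 lists beyond the 10 clock genes, at 125 µM and at 2.5 µM TBOEP against DMSO, with bars for the 95% interval; filled points have an adjusted p under 0.05. ARNTL2 (0.60) and RORA (-0.78) lie on opposite sides of 0 at 125 µM.

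The genes whose level over the 9 libraries was most like that of PER1, the member with the smallest adjusted p at 125 µM against DMSO, were KCTD3 (Pearson's r 0.98), PTPRF (0.98), CADM1 (0.97), AP001065.15 (0.97) and OSBP2 (0.97), among 12812 genes compared. These coefficients describe 9 points in 3 groups and all 5 genes averaged less at 125 µM than in DMSO, as PER1 did. CADM1, a cell adhesion molecule, averaged 98.5 CPM at 125 µM, against 232 CPM in DMSO. OSBP2, an oxysterol binding protein, averaged 5.44 CPM at 125 µM, against 18.8 CPM in DMSO. Among the clock genes, the coefficient with PER1 was 0.88 for ARNTL, 0.87 for DBP, 0.82 for PER3 and 0.77 for PER2. It was 0.71 for CLOCK, 0.65 for CRY1, 0.33 for TEF, -0.14 for BHLHE40 and -0.71 for CRY2.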

How the data were processed

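RNA was sequenced as stranded paired reads of 50 bp from 9 HepG2 cultures, 3 per group, per the labels' protocols. CLC Genomics Workbench mapped the reads to hg19 and annotated them, per the series' design text. Neither its version nor the strand setting of the counting is given in the sources used here. The deposited total gene reads are whole read counts per gene, exon and intron reads together, per the file headers. RPKM, as deposited by the authors, takes exon reads per exon length and per library depth, as the file headers name it. Starts were raised by 1, after which 68.9% of 33409 features with a GENCODE name on GRCh37 began at the same base.

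The 10 members, the other gene lists and the tests were chosen with earlier results of these data known. Total gene reads of 2480964 to 11885877 a library were filtered with filterByExpr, which kept 12901 of 57773 features. After TMM scaling, 1 model without covariates covered the 9 libraries and their 3 groups in edgeR 4.0.16 (R 4.3.3), and contrasts were tested two-sidedly by quasi-likelihood. Adjusted p-values are Benjamini-Hochberg values over all 12901 genes, and those under 0.05 passed. The common biological coefficient of variation came to 10.0%. Intervals of 95% are normal ones from the SE. The script was tested on simulated counts. Ratios within a library used 0.5 added to each count and an exact permutation test (Python 3.11.15, scipy 1.17.1), adjusted over 10 pairs.

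All 10 members are named whatever their values, other listed genes only where they passed (at most 6 of a list in a comparison), and NR1D1, NFIL3 and NAMPT at 125 µM as values beside a partner, chosen after their values were seen. Likeness to PER1 is Pearson's r of log2 CPM over genes of at least 1 CPM on average. PECAM1 was not analysed here. 1 gene of the loop list is not reported here. Alternatives were RLE and upper quartile scaling, no filter, DESeq2 1.42.0, exon reads, limma 3.58.1 on log2(RPKM + 0.5), the replicate number as a block, and leaving out each culture. Shared replicate numbers were not taken to pair cultures. Promoter windows come from RefSeq (GRCh38.p14), with all 10 genes matched.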

Additional observations from a re-analysis of the deposited data

How the results depend on the processing

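Of the 10 clock genes, PER1 and ARNTL kept their calls at 125 µM against DMSO in all 16 alternatives, as PER1 did at 125 µM against 2.5 µM. DBP had the fewest reads of the 10, with 4 to 41 a library, and kept its call at 125 µM against DMSO in 14 of 16 alternatives. The cause of the changes below was not tested. At 125 µM against DMSO, 5 of the 10 passed; DESeq2 called 3, and leaving out 1 culture gave 2 to 6 (2 without control culture 1, 3 without 125 µM culture 2). At 2.5 µM against DMSO, 0 passed, 1 (ARNTL) did without the filter on low counts, and 0 to 1 did when 1 culture was left out. At 125 µM against 2.5 µM, 2 passed in all 16 alternatives, PER1 and PER2 without 125 µM culture 2 and PER1 and DBP in the others. Over all genes, 5180 were called at 125 µM against DMSO, 1425 at 2.5 µM against DMSO and 1925 at 125 µM against 2.5 µM. Leaving out 1 culture gave 3557 to 5351, 213 to 2050 and 799 to 2230 in the same order of comparisons. On log2(RPKM + 0.5), limma called 216 at 2.5 µM against DMSO and 968 at 125 µM against 2.5 µM. There 66.5% of calls were higher at 125 µM against DMSO (50.5% by edgeR), 79.2% at 2.5 µM against DMSO (54.5%) and 68.8% at 125 µM against 2.5 µM (50.1%), with a shift in the median of all genes of 0.09, 0.03 and 0.04.

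The replicate number as a block gave 5066, 1274 and 1771 called genes in the same order and 5, 0 and 2 of the clock genes, the same genes as without it. Same-numbered cultures did not deviate together in all pairs (correlations of -0.24 to 0.18, 4 of 9 over 0.1), and 5 of 9 libraries correlated best with one of their own number. In each group culture 3 had the fewest reads: 4023991 in DMSO, 2480964 at 2.5 µM and 2670690 at 125 µM. The intron share of nuclear genes was highest in culture 1 and lowest in culture 3 of each group. Under the block USP2 at 125 µM against DMSO (adjusted p 0.058, edgeR) and ARNTL2 at 2.5 µM against DMSO (adjusted p 0.052, edgeR) did not pass.

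The sign of values that had not passed turned in these cases. BHLHE40 at 125 µM against DMSO had a log2 fold change of 0.0033 with upper quartile scaling and 0.053 on RPKM, and lay between -0.093 and 0.059 when 1 culture was left out (0.023 without 125 µM culture 3, 0.059 without control culture 1). Over the same fits with 1 culture left out, TEF at 125 µM against DMSO lay between -0.22 and 0.20 (without control culture 3), and PER2 at 2.5 µM against DMSO between -0.14 and 0.016 (without control culture 1). For 125 µM against 2.5 µM, CLOCK was at 0.026 on RPKM, where CRY2 was at 0.12, and with 1 culture left out CRY2 lay between -0.013 (without 2.5 µM culture 3) and 0.072, with -0.011 without 125 µM culture 2. The PER2 to PER3 ratio (125 µM minus DMSO) with 1 culture left out lay between -0.49 and 0.070 (0.070 without 125 µM culture 1, 0.063 without 125 µM culture 3), and the TEF to HLF ratio between -0.025 (without control culture 2) and 0.44. The ratio alternatives (exon reads and each culture left out) were chosen after seeing the data.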
